A study of Tupaia belangeri with 6 samples.

Results

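The regions described here were strandless loci inside stranded autosomal loci of the tree shrew prefrontal cortex (PFC) transcriptome. A strandless locus is a stretch of transcribed sequence whose reads gave no direction of transcription, and it was a member of this set where it lay on a chromosome other than X and overlapped a locus with a plus or minus strand. The start of chromosome 26 was left out, which removed 11 strandless loci. By this rule, 12486 of the 95863 loci measured were members, out of 18623 strandless loci in all. Each member was paired with the stranded locus that it overlapped by the most bases, called its host, and there were 5458 distinct hosts. No genome sequence of this build was used here, so members are named by identifier, position and host, and no sequence is shown.

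Polyadenylated RNA came from the PFC of 6 adult Chinese tree shrews (Tupaia belangeri), small mammals that are close relatives of primates, of which 3 were female (animals 1, 3 and 4) and 3 were male (animals 1, 4 and 5). The labels name no treatment, strain or allele. Every male is listed with a greater age than every female, so that age and sex cannot be told apart. The question of the design was which loci differed in level between the sexes.

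Transcribed genes carry long introns that are cut out of the first RNA copy, and brain genes for cell adhesion and ion channels are among the longest in a mammalian genome. When reads from an RNA library without strand labels are assembled, direction is read from the splice junctions, so a transcribed stretch with no junction gets no strand. Such single-exon stretches inside genes can hold retained introns, unannotated exons, alternative ends or other RNAs, and an assembly of this kind does not tell them apart.

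Levels are given in TPM, a read density per base of transcript scaled to the same total in each library, so that loci of different length can be set side by side. For a strandless locus the deposited coverage times its length gave a whole number of aligned bases, within 0.02 bases, in 96.6% to 98.4% of detected members, so the depth behind most values is known. A library held 5.04 to 5.65 Gb of aligned bases, and 1 read of 150 bases over a member of the median length was worth 0.317 to 0.407 TPM. Cell type markers were read as a check for brain tissue, and they do not tell the PFC from other cortex. Neuron markers (9 of 11 found) summed to 6608 to 8774 TPM and astrocyte markers (9 of 10) to 2883 to 4354 TPM, while choroid plexus markers (4 of 5) summed to 3.23 to 12.3 TPM. NEFL, which encodes a neurofilament subunit, was listed at 0 in all 6 animals.

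Members were short and uniform in size. The median length was 308 bp, the middle 50% lay between 272 and 362 bp, and 10024 members (80.3%) were under 400 bp. The shortest, MSTRG.13584 on chromosome 14 (10904709 to 10904909) in the host TSORFli629, had 201 bp and was above 0 only in male 5, at 5.63 TPM. The longest, MSTRG.24615, had 9507 bp (chromosome 19, 15712437 to 15721943) and lay in PINX1, which encodes a telomerase inhibitor. Its level was 15.001, 16.0 and 20.8 TPM in females 1, 3 and 4 and 17.0, 25.1 and 27.2 TPM in males 1, 4 and 5, against 13.0, 10.8 and 14.05 TPM and 12.2, 10.4 and 5.46 TPM for PINX1. This long member was above its host in every animal, and the sexes overlapped. Only 605 members (4.85%) reached 1000 bp, beside 8.19% of the 4592 strandless autosomal loci that overlapped no stranded locus, called intergenic here, whose median length was 314 bp.

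Although an overlap of a single base was enough to be counted, all 12486 members lay wholly inside their host. The distance to the nearer end of the host was 26 bases at the least and 24710.5 bases at the median, and 8993 members (72.0%) were more than 10 kb away from either end. Members were spread evenly along their hosts. When each host was divided into 10 equal parts from its 5′ end, a part held between 9.08% and 10.9% of the members. Most members (9888) lay in 1 stranded locus, whereas 2598 (20.8%) overlapped at least 2, and 2416 of these had loci of both strands over them, so that the choice of host was not unique there. Since the abundance tables list loci and not exons, whether a member lay in an exon or an intron of its host was not determined. Across chromosomes the density ran from 2.64 members per Mb on chromosome 26 to 9.08 per Mb on chromosome 27. The span of chromosome 26 includes its left-out start, where no member could be counted, and this lowers its value.

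Hosts were long genes. Their median length was 80311 bp, against 6856.5 bp for the 70896 stranded autosomal loci as a whole, and 7.70% of those loci were chosen as host of a member. That share climbed with length, from 0.819% of loci under 10 kb to 8.01% at 10 to 50 kb, 21.1% at 50 to 100 kb, 42.5% at 100 to 500 kb and 67.3% above 500 kb. Per Mb of gene body the difference was much smaller, at 3.14, 4.79, 5.66, 6.03 and 5.74 members. Where a member lay in more than 1 locus, ties in overlap went to the longest, which moves these values toward long loci. Counted over every stranded locus that a member overlapped, a choice made after the data were seen, 7170 loci (10.1%) with a median length of 59879.5 bp held a member. The shares by length were then 1.66%, 12.7%, 26.4%, 45.4% and 68.3%, and the densities were 6.31, 7.64, 7.13, 6.45 and 5.76 per Mb, with no climb toward long loci. Genes with names were hosts more often than unnamed loci, in 17.2% against 3.86% of cases, but they were also longer (median 23930 against 4451.5 bp), and per Mb of body they held 6.64 against 3.89 members. In all, 8851 members (70.9%) lay in the 3509 named hosts. No member carried a gene name itself.

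Member density also differed with the level of the host. Stranded loci at 0 TPM in all animals held 1.21 members per Mb, those with a mean above 0 and up to 1 TPM held 5.30, those between 1 and 10 TPM held 10.6 and those above 10 TPM held 5.78. The highest density therefore fell in genes of low to middle level and not in the strongest ones, and with every overlapped locus counted the densities were 2.17, 8.17, 12.03 and 6.15 per Mb. The same class was the densest within each of the 5 length classes, with 9.27, 13.7, 13.0, 9.80 and 9.35 members per Mb from the shortest to the longest. Among loci over 500 kb with a mean of 1 to 10 TPM, 95 of 105 (90.5%) were hosts. At the other end, 550 hosts (10.1%) were at 0 TPM in every animal, and these held 658 members.

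**Figure D1:**
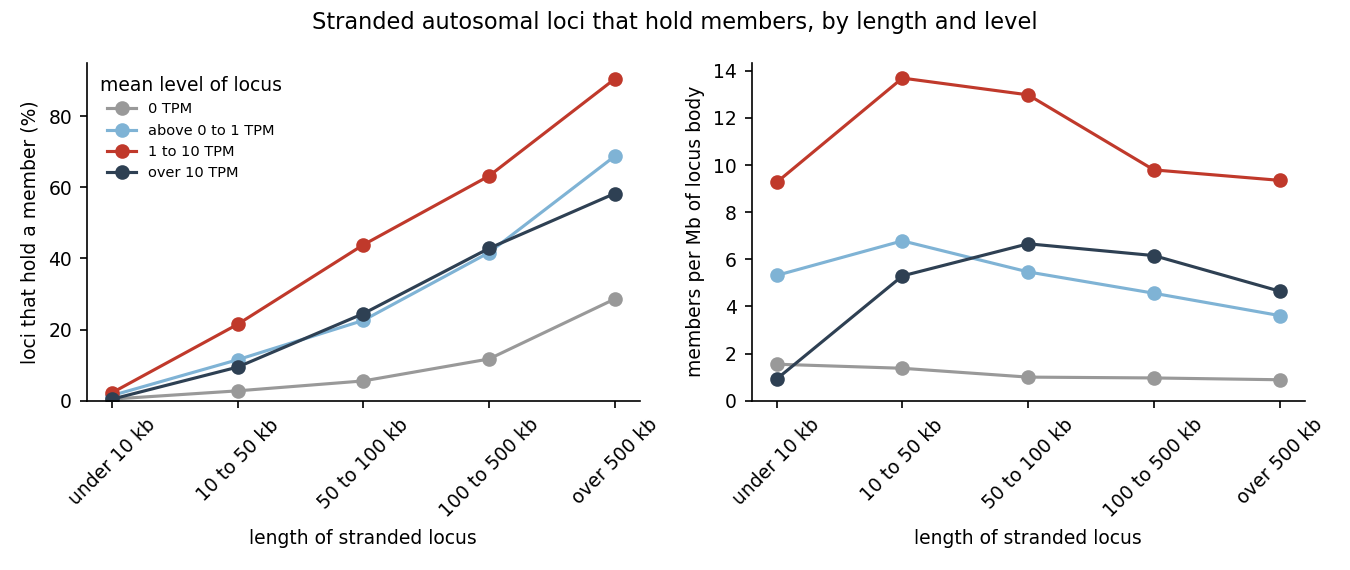
Stranded autosomal loci grouped by length (x axis) and by mean TPM over 6 animals (colours). Left, the share of loci chosen as host of a member in percent. Right, members per Mb of locus body, each member counted in its host only. The share climbs with length in every level class, and loci between 1 and 10 TPM lie highest in both panels, up to 90.5% of loci and 13.7 members per Mb.

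The named hosts with the most members were long, from 493463 to 2085191 bp. CSMD1, a complement regulator of the synapse that spans 2085191 bp (chromosome 19, 18902640 to 20987830), held 70, the most of any host. It was followed by FRMD4A, a scaffold protein of cell polarity, with 36, LRP1B, a lipoprotein receptor relative, with 35, the adhesion molecule CNTN5 with 29, the calcium channel CACNA1C, the potassium channel KCNH7 and the nuclear receptor RORA with 27 each, and the glutamate receptor subunit GRIN2B with 25. In all, 108 hosts with at least 10 members held 1667 members, while 2917 hosts (53.4%) held a single one.

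In CSMD1 the members' summed level was 8.76, 7.13 and 52.9 TPM in females 1, 3 and 4 and 181, 44.7 and 177 TPM in males 1, 4 and 5. CSMD1 itself was at 7.26, 8.54 and 5.36 TPM and 8.62, 6.95 and 11.8 TPM. The host's highest animal was 2.21-fold above its lowest, while its members' sum covered a 25.4-fold range and the number of members above 0 followed the sum, at 12, 8 and 15 for the females and 42, 14 and 32 for the males. Of the 70 members, 45 were above 0 in a single animal and 2 in all 6. In KCNH7, a subunit of a voltage-gated potassium channel, the members' sum was 3.15, 0.439 and 22.2 TPM in the females and 29.9, 18.9 and 137 TPM in the males, with the host between 0.767 and 2.68 TPM. Male 5 was highest there, whereas in CNTN5 male 1 was highest, with 4.62, 1.38 and 8.17 TPM in the females and 94.5, 13.0 and 68.9 TPM in the males, while CNTN5 itself ran from 1.98 to 9.80 TPM. In RORA the sum was 4.06, 4.39 and 27.9 TPM in the females and 81.9, 7.86 and 40.6 TPM in the males. GRIN2B held 5 members that were above 0 in all 6 animals, the most among these 8 hosts, and its members summed to 9.56, 10.3 and 42.6 TPM in the females and 70.4, 45.9 and 48.1 TPM in the males. GRIN2B itself was at 1.09, 1.66 and 0.607 TPM in the females and 5.51, 2.02 and 0.493 TPM in the males, so here the host covered the wider range, 11.2-fold against 7.37-fold for its members.

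Gene lists for neuronal and glial functions were read against the 17.2% of all named loci that were hosts. These lists differ in gene length, and the members per Mb of body are given beside the share, with 6.64 per Mb over all named loci. Of 33 long neuronal genes found on the autosomes, 21 were hosts with 305 members (7.01 per Mb), of which 199 were above 0 in 1 animal. Among voltage-gated channels 12 of 23 were hosts with 89 members (10.7 per Mb), CACNA1C holding the most. Among ionotropic and metabotropic glutamate receptors 8 of 18 were hosts with 62 members (7.15 per Mb), led by GRIN2B. GABA signalling genes held 15 members in 3 of 14 genes (5.51 per Mb), with 7 in the receptor subunit GABRG3.

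Genes of transmitter release held 15 members in 4 of 18 genes (3.70 per Mb), and 11 of those lay in PCLO, a very long scaffold protein of the active zone. Genes of the postsynaptic density held 21 members in 4 of 12 genes (3.51 per Mb), with 10 in the adhesion molecule LRRC4C. Both synaptic lists lay above all named loci in the share of genes that were hosts, at 22.2% and 33.3%, and below them in members per Mb, and most of the first list's members and many of the second's lay in a single gene. Ribosomal protein genes held 11 members in 4 of 37 genes (19.2 per Mb), 5 of them in RPSA, and their median locus length was 5013 bp. Oxidative phosphorylation genes held 5 members in 3 of 18 (7.79 per Mb), of which 2 lay in ATP5F1B, a subunit of ATP synthase. The share of hosts among oxidative phosphorylation genes (16.7%) lay near that of all named loci, and densities that rest on so few members, here and in the lists of 21 or fewer, are loose. Of the ribosomal protein genes, 18 were listed at 0 in all animals, so the level of this list is not complete.

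Among cell type markers, oligodendrocyte genes held 14 members in 3 of 8 genes (14.5 per Mb), with 10 in the transcription factor ST18, and endothelial and mural genes held 8 in 3 of 7 (6.04 per Mb), with 4 in PECAM1, an adhesion molecule of vessel walls. Astrocyte genes held 6 in 2 of 9 (2.59 per Mb), with 4 in the calcium release channel RYR3. Neuron markers held 2 in 1 of 9 (GAD1, a GABA-synthesising enzyme), at 1.44 per Mb. Microglia markers held 1 in 1 of 7 (CX3CR1, a chemokine receptor), at 1.71 per Mb, and choroid plexus markers held 2 in 1 of 4 (TTR, a thyroid hormone carrier), at 10.8 per Mb. None of the 4 blood genes on the autosomes was a host, including AHSP, which encodes a haemoglobin stabilising protein.

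Detection of members was uneven across animals. Members above 0 TPM numbered 4292, 4485 and 4721 for females 1, 3 and 4 and 6234, 4619 and 7441 for males 1, 4 and 5. Their summed level was 9897, 10325 and 17784 TPM in the females and 27801, 10772 and 43179 TPM in the males. Female 4, male 1 and male 5 thus held more strandless signal than the other 3 animals, and the sexes overlapped because male 4 lay close to females 1 and 3. As a share of all TPM this was 1.02%, 1.07% and 1.84% for the females and 2.92%, 1.12% and 4.51% for the males. Counted in aligned bases the members took a smaller share, of 0.212%, 0.217% and 0.320% for the females and 0.410%, 0.217% and 0.527% for the males, in the same order except for near ties.

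The same 3 animals stood apart in other measures. Stranded autosomal loci above 0 numbered 23558, 23827 and 21178 for the females and 21692, 23943 and 20244 for the males, so the 3 libraries with the most member signal had fewer stranded loci detected than the other 3, with no such order within either set. Hosts above 0 numbered 4404, 4401 and 4190 for the females and 4214, 4418 and 4076 for the males. Intergenic strandless loci summed to 5625, 5310 and 8069 TPM in the females and 11475, 5634 and 17019 TPM in the males, with the same 3 animals highest. Postsynaptic density genes summed to 2240, 1967 and 2307 TPM in female 4, male 1 and male 5, against 3012 to 3405 TPM in the other 3 animals. Astrocyte markers were also lower, at 2883 to 3834 TPM against 3862 to 4354 TPM. Neuron markers overlapped, at 6791 to 7971 TPM against 6608 to 8774 TPM. The part of these library differences in the members' values was not tested.

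These libraries also differed in the depth of single members. In females 1 and 3 and male 4, 60.9%, 62.4% and 63.1% of detected members had a mean coverage of at most 2, and 16.8%, 16.6% and 15.8% had a coverage from 4 to under 10. In female 4, male 1 and male 5 the first share was 29.5%, 22.0% and 10.8%, and the second was 48.3%, 59.8% and 67.4%. The median detected member had 588, 554 and 1833 aligned bases in the females and 1916, 531 and 2184 for the males, which equals 3.92, 3.69 and 12.2 reads of 150 bases and 12.8, 3.54 and 14.6 reads. Its level was 1.03, 1.09 and 3.38 TPM in the females and 4.40, 1.14 and 5.55 TPM in the males. At this depth a single member near the median is known only roughly in any library, and reads without molecular identifiers need not be independent molecules.

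Most members were found in some animals only. Of the 12486, 1293 (10.4%) were above 0 in all 6 animals, 6070 (48.6%) in 2 to 5, 5111 (40.9%) in 1 and 12 in none. Of the members found in a single animal, 2206 were in male 5, 1792 in male 1 and 764 in female 4, and only 111, 138 and 100 were in female 1, female 3 and male 4. These had a median length of 292 bp and a median coverage of 7 in the animal that held them, with the middle 50% from 6 to 8.04. They made up 33.7%, 32.7% and 20.7% of all member TPM in male 1, male 5 and female 4, and 4.90% to 7.21% in the other 3 animals.

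Members found in every animal had a median length of 752 bp. Their summed level was 5483, 5161 and 6605 TPM in females 1, 3 and 4 and 7750, 5615 and 7807 TPM in males 1, 4 and 5, so the highest animal was 1.51-fold above the lowest, against 4.36-fold for all members. Members that drop to 0 in a library cannot enter this group, so part of the smaller range follows from how it was chosen. Female 4, male 1 and male 5 were again the highest of these. This group carried 55.4%, 49.98% and 52.1% of member TPM in female 1, female 3 and male 4, and 37.1%, 27.9% and 18.1% in female 4, male 1 and male 5. Hosts of members found in all animals had a median level of 8.25 TPM, against 6.07 TPM for members found in 2 to 5 animals and 4.88 TPM for those found in 1.

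**Figure D2:**
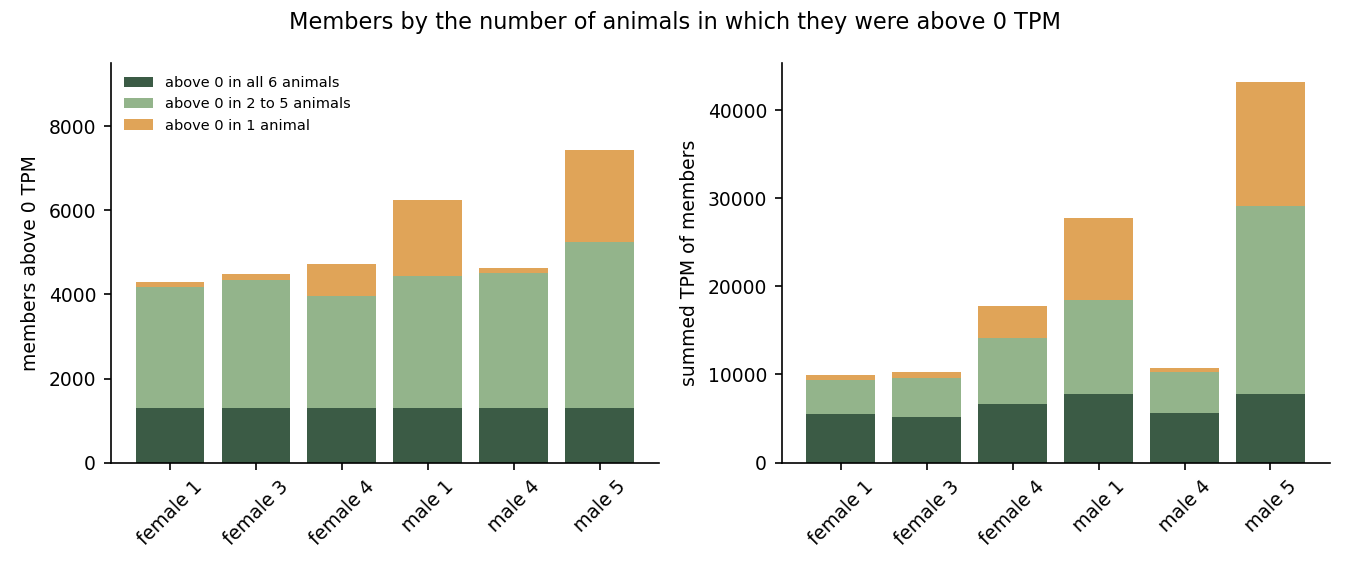
Members above 0 TPM (left, number) and their summed TPM (right) in each of the 6 animals, stacked by whether the member was above 0 in all 6 animals, in 2 to 5 or in 1. In summed TPM the lowest block runs from 5161 to 7807, while the upper blocks together are taller in female 4, male 1 and male 5 than in the other animals.

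Member level and host level were hardly related. Across members with both above 0, Spearman's rho between member and host TPM within a library was 0.036 (n = 3889), 0.014 (n = 4099) and 0.028 (n = 4033) for females 1, 3 and 4 and 0.016 (n = 5532), 0.082 (n = 4270) and -0.014 (n = 6402) for males 1, 4 and 5. These pairs share a library and, in many cases, a host, and members are not independent replicates, so the values are given as a description. The highest coverage of a member over the animals had a 1st percentile of 4.02 and a median of 7, so few members were weak in every library. A range of member levels narrowed in this way can hold rho low. Grouped by host level, the median of the members' mean TPM was 0.976 for hosts at 0 TPM, 1.07 for hosts up to 1 TPM, 1.10 for hosts of 1 to 10 TPM and 1.14 for hosts above 10 TPM. The share of members found in all 6 animals was 6.69%, 8.55%, 9.79% and 12.3% in the same order.

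A typical member lay below its host. The median of the log2 ratio of member to host TPM was -2.94, -3.13 and -1.68 for the females and -1.30, -2.69 and -0.88 for the males. Over the same pairs, members that exceeded their host made up 19.0%, 17.6% and 29.2% for the females and 30.6%, 19.5% and 36.7% for the males. With hosts at 0 counted too, the shares of detected members were 26.6%, 24.7% and 39.5% for the females and 38.4%, 25.6% and 45.5% for the males. The summed TPM of hosts was 161135, 167300 and 153371 for the females and 170709, 160562 and 162888 for the males, a narrow range, and the members' sum came to 6.14%, 6.17% and 11.6% of it in the females and 16.3%, 6.71% and 26.5% for the males. The ratio therefore moved through the members and hardly through the hosts. Some detected members lay in a host that was at 0 in the same library, 403, 386 and 688 for the females and 702, 349 and 1039 for the males.

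**Figure D3:**
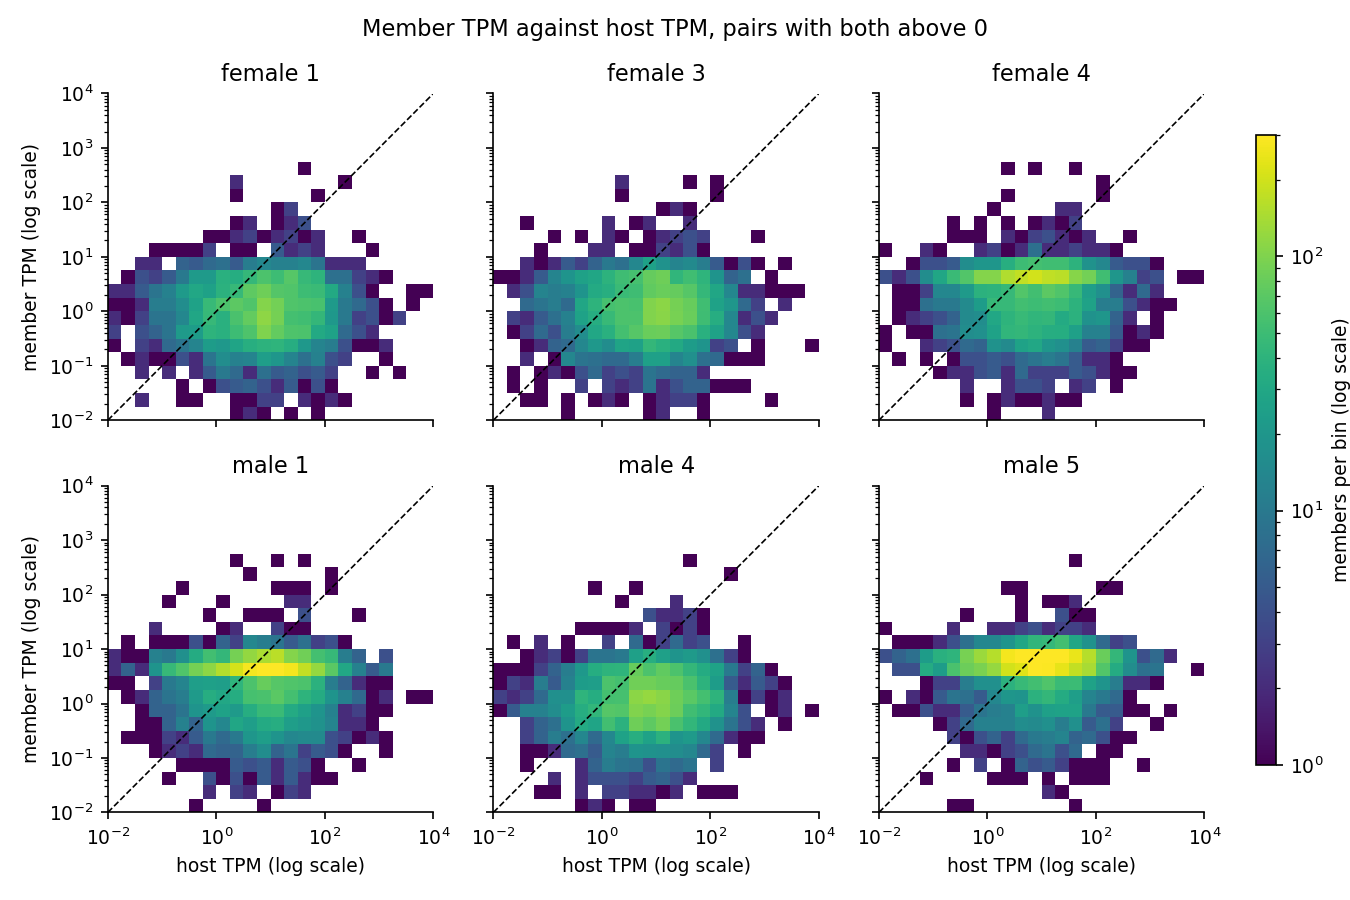
Member TPM (y, log scale) against host TPM (x, log scale) in each library, as counts of members per bin (colour, log scale) for pairs with both above 0. The dashed line marks equal levels, and 51 of 28225 pairs lie outside the axes. Female 4, male 1 and male 5 show a horizontal band of members between about 3 and 10 TPM at every host level, and the other 3 libraries show a broad cloud around 1 TPM.

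The 8 members with the highest mean TPM stood far above this range and, with 2 exceptions, were found at a high level in every animal. The strongest was MSTRG.64126 (523 bp, chromosome 9, 80014020 to 80014542) in ATRN, which encodes attractin, a membrane protein whose loss in rodents leads to defects of myelin. It stood at 456, 252 and 462 TPM in the females and 516, 386 and 364 TPM in the males. ATRN itself was at 38.6, 43.9 and 32.3 TPM and 32.9, 33.4 and 46.7 TPM, so the member was above its host in each animal and the sexes overlapped. Next was MSTRG.48860 (248 bp, chromosome 4, 94325209 to 94325456), in the unnamed locus MSTRG.48858, at 304, 274 and 401 TPM in the females and 340, 298 and 308 TPM in the males, while its host was between 0 and 15.2 TPM.

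MSTRG.12264 (341 bp, chromosome 13, 44876475 to 44876815) lay in RAD54B, a DNA repair helicase relative. Its levels were 293, 241 and 457.5 TPM in the females and 483, 17.0 and 172 TPM in the males, with RAD54B at 1.48 to 2.97 TPM. Male 4 was far below the others, on 6929 aligned bases against 72970 to 239898 in the other 5 animals. With a mean 114 times that of its host, this member had the highest such ratio among those in named hosts of at least 1 TPM. It was followed by MSTRG.48745 (1686 bp, chromosome 4, 90377162 to 90378847) in SHC4, a signalling adaptor, at 51.2 times. That member was at 164, 171 and 159 TPM in the females and 209, 107 and 166 TPM in the males, a steady level in the females that lay within the wider range of the males, and SHC4 was at 2.53 to 3.71 TPM.

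MSTRG.26262 (241 bp, chromosome 2, 27572506 to 27572746) in USP6NL, a GTPase-activating protein of endosome traffic, was 24.1 times above its host, at 52.7, 53.0 and 72.6 TPM in the females and 64.0, 73.6 and 56.9 TPM in the males. MSTRG.53433 (349 bp, chromosome 6, 40008218 to 40008566) in WNT5B, a secreted Wnt ligand, was 21.8 times above its host, at 33.5, 41.8 and 39.4 TPM in the females and 70.1, 28.0 and 29.9 TPM in the males, and it overlapped a second stranded locus. Neither member separated the sexes.

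In 2 further cases a strong member lay at about the level of a strong host. MSTRG.36502 (231 bp, chromosome 23, 23552429 to 23552659) in IP6K2, an inositol phosphate kinase, was at 182, 188 and 250.5 TPM in the females and 216, 209 and 167 TPM in the males, and IP6K2 at 141 to 238 TPM. MSTRG.22116 (314 bp, chromosome 17, 52771651 to 52771964) in SF3B2, a splicing factor subunit, overlapped a second stranded locus as well, so that SF3B2 is not its only possible host. It was at 116, 129 and 165 TPM in the females and 169, 0 and 164 TPM in the males, while SF3B2 was at 94.2, 124 and 138 TPM and 146, 91.2 and 107 TPM. Male 4 had no aligned base listed for that member although its host was measured there at 91.2 TPM. MSTRG.33709 (304 bp, chromosome 21, 49607367 to 49607670) in CNOT1, the scaffold of the deadenylase complex, was at 53.2, 72.05 and 72.2 TPM in the females and 115, 80.5 and 50.6 TPM in the males, with CNOT1 at 18.6 to 36.9 TPM.

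A zero in a single library was not peculiar to the SF3B2 member. In all, 156 members had at least 1 TPM in 5 animals and 0 in the sixth, and the animal at 0 was female 1, 3 or 4 in 19, 23 and 37 cases and male 1, 4 or 5 in 29, 23 and 25 cases. An instance chosen after its values were seen is MSTRG.51270 (6416 bp, chromosome 5, 55543652 to 55550067) in COPG2, a subunit of the vesicle coat. It stood at 58.5, 71.7 and 50.4 TPM in the females and 83.3, 0 and 82.8 TPM in the males, the others resting on 497569 to 727950 aligned bases each, and COPG2 was at 20.1 TPM in male 4. Another, MSTRG.45798 (635 bp, chromosome 30, 5261998 to 5262632), was at 32.4, 0 and 38.7 TPM in the females and 32.1, 24.04 and 12.6 TPM in the males inside an unnamed host at 0 in all 6. Such values are given as listed, since a 0 in an abundance table can be a failed estimate.

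**Figure D4:**
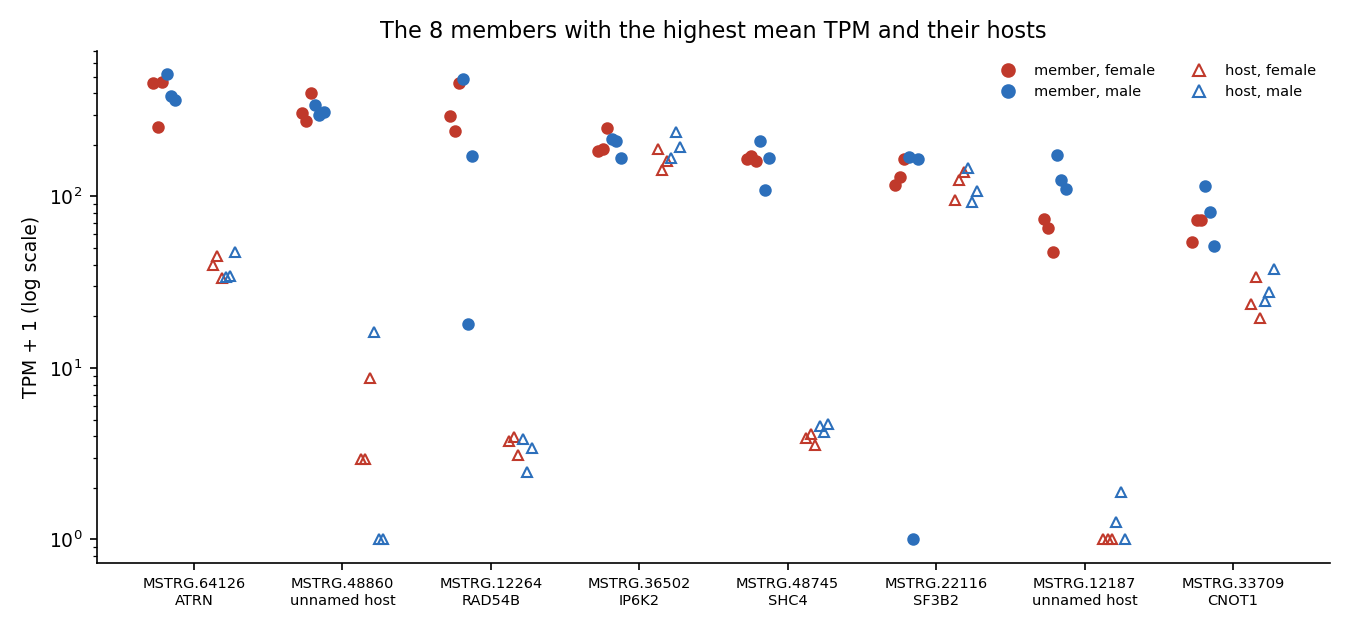
TPM + 1 (log scale) of the 8 members with the highest mean TPM (filled circles) and of their hosts (open triangles), 1 symbol per animal, females in red and males in blue. Members in ATRN, RAD54B and SHC4 lie well above their hosts, those in IP6K2 and SF3B2 lie beside them, and the SF3B2 member is at 0 TPM in male 4.

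Between the sexes, members were higher in males on average but the animals overlapped. The summed TPM was 12669 ± 4435 (SD, n = 3) among females and 27251 ± 16210 (SD, n = 3) among males (p = 0.2, exact permutation test, two-sided), and the number above 0 was 4499 ± 215 and 6098 ± 1416 (SD, n = 3 each, p = 0.2, exact permutation test). With 3 animals against 3, this exact permutation test cannot go below p = 0.1. The mean log2(TPM + 1) over all members was 0.520 ± 0.149 in females and 1.01 ± 0.521 in males (SD, n = 3 each), a difference of -0.49 for females minus males (p = 0.2, exact permutation test). It was between -0.76 and -0.24 when each animal was left out in turn, the smallest without male 5 and the largest without male 4, and the summed TPM difference ranged from -22822 to -6618. The difference in the number above 0, of -1599, ranged from -2338 to -927, and that in the members' sum as a percentage of the hosts' sum, of -8.53 percentage points, ranged from -13.4 to -3.53. In a comparison chosen after the data were seen, without female 4, male 1 and male 5, the difference was -0.041 in mean log2(TPM + 1) and -661 in summed TPM, between 2 females and 1 male and with no test. The animals left out there were those with the highest member sums, so a smaller difference follows largely from the choice.

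The hosts did not move with their members. Their mean log2(TPM + 1) was 2.44 ± 0.109 in females and 2.43 ± 0.0422 in males (SD, n = 3 each, p = 1, exact permutation test). The difference between members and hosts in mean log2(TPM + 1) was -1.92 ± 0.250 in females and -1.42 ± 0.503 in males (SD, n = 3 each, p = 0.2, exact permutation test), so that a sex difference of members beyond that of hosts was not shown. Females minus males this came to -0.50, and to between -0.77 without male 4 and -0.27 without male 5. Members and intergenic strandless loci moved together across animals. The difference between them was -0.17 ± 0.0240 in females and -0.079 ± 0.0599 in males (SD, n = 3 each, p = 0.2, exact permutation test), and without female 4, male 1 and male 5 the sex difference in it fell from -0.092 to -0.021. Members found in all 6 animals had a mean log2(TPM + 1) of 1.68 ± 0.126 in females and 1.998 ± 0.248 in males (SD, n = 3 each, p = 0.2, exact permutation test).

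Other properties of the libraries lay along with sex. Aligned bases were 5.46 ± 0.227 Gb in females and 5.07 ± 0.0272 Gb in males (SD, n = 3 each, p = 0.1, exact permutation test), with every female above every male. Blood markers (5 of 7 found) summed to 1288, 2553 and 1486 TPM in the females and 68.9, 83.9 and 112 TPM in the males, none of the 5 at 0 in all animals. Oligodendrocyte markers (9 of 13) summed to 841, 642 and 579 TPM in the females and 508, 237 and 172 TPM in the males, again with none at 0 in all. In bulk tissue, fewer cells of a type and less RNA per cell cannot be told apart. The part of depth, blood and oligodendrocyte content in the members' sex difference was not tested.

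**Figure D5:**
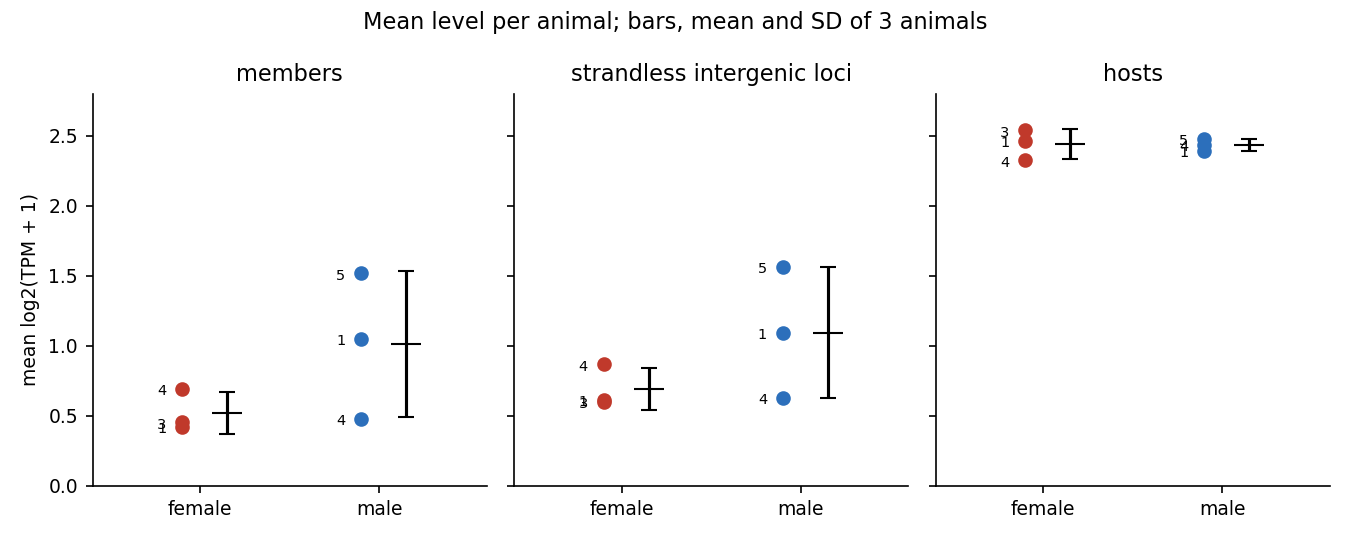
Mean log2(TPM + 1) per animal (circles with the animal number, females red, males blue) over members, strandless intergenic loci and hosts, with the mean and SD of 3 animals as bars. Members and intergenic loci show the same order of animals at the top, male 5, male 1 and female 4, while hosts lie between 2.32 and 2.54 in all 6.

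Member by member, the sexes were compared with limma on log2(TPM + 1), fitted over the 27996 autosomal loci that reached 0.1 TPM in no fewer than 3 animals. Of the 12486 members, 4814 (38.6%) passed this filter and 7672 did not. None of the 4814 had a Benjamini-Hochberg adjusted p under 0.1 in limma, beside 4 of all 27996 loci tested (0.0143%), and 408 had an unadjusted p under 0.05. In that count 312 members were higher in males, against a background of 2.61% of all loci tested in that direction, and 96 were higher in females, against a background of 2.42%. The members' own shares were 6.48% and 1.99%. Every male lay above every female in 414 members (8.60%, background 4.97%) and every female above every male in 123 (2.56%, background 4.84%).

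These counts lean to males in the same way as the per-animal sums. The loci themselves were assembled from these same libraries, so a member could enter the set through a single library where it was high. Of members found in 1 animal, 2206 were in male 5, 1792 in male 1 and 764 in female 4. Neither the counts nor the sums are free of this choice. A member under 0.1 TPM in every animal of one sex passed the filter only through the other and had to differ, which held for 106 members in the females and 44 in the males, and 87 of the 312 and 30 of the 96 were of this kind. Of the members in which the sexes did not overlap, 95 of the 414 were at 0 in all females and 40 of the 123 at 0 in all males, so that their separation was fixed by the filter. Of the tested members 72.2% had the lower mean in females, beside 53.3% of all loci tested. Intergenic strandless loci leaned the same way, with 120 of 2221 (5.40%) higher in males and 57 (2.57%) higher in females at an unadjusted limma p under 0.05. Stranded loci leaned the other way, with 300 of 20961 (1.43%) higher in males and 524 higher in females, and the background over all loci tested holds all 3 classes, members included. The median difference over the tested members was -0.51 on the log2 scale, with -0.031 over all loci tested. The count higher in males was 198 without female 3 and 207 without female 1, and it was 537 without male 1 and 509 without male 4, while the count higher in females was 56 without female 4.

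The member with the smallest p, MSTRG.40505 (301 bp, chromosome 27, 12426480 to 12426780), lay in SIGLEC10, an inhibitory sialic acid receptor of immune cells. It was at 24.9, 13.2 and 8.31 TPM in the females and listed at 0 in all 3 males, on 10485, 5021 and 3846 aligned bases in the females. The difference was 3.91 on the log2(TPM + 1) scale (SE 0.526, limma, Benjamini-Hochberg adjusted p = 0.288), so it was not called. Being at 0 in every male, it entered the test only through the females in which it was high. For the same reason a call of this member with a filter of 1 TPM in 3 animals would be no support for a difference, and without any 1 of the females it left the test. Without single males its limma adjusted p was 0.250 to 0.344. SIGLEC10 did not follow, at 4.05, 6.38 and 3.0002 TPM in the females and 1.09, 6.73 and 7.23 TPM in the males, with overlapping groups.

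The next members by p in that direction were weak, rested on few reads and likewise passed the filter only through the females, so each left the test without any 1 of them. MSTRG.39419 (291 bp, chromosome 26, 18177271 to 18177561) in the olfactory receptor locus OR4P4li2 was at 2.76, 2.76 and 4.55 TPM in the females and at 0 for the males, with 1018 to 2037 aligned bases where it was found. MSTRG.53 (365 bp, chromosome 1, 1529798 to 1530162), in the unnamed host MSTRG.50, was at 2.53, 2.37 and 4.16 TPM in the females and 0, 0 and 0.0331 TPM in the males. Its host went the same way, at 4.03, 2.54 and 2.48 TPM in the females and 2.06, 0.894 and 0.0981 TPM in the males. Neither member was called (limma, Benjamini-Hochberg adjusted p = 0.925 for both).

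In the other direction, 2 of the 3 members with the smallest p passed the filter only through the males and left the test without any 1 of them. MSTRG.39328 (704 bp, chromosome 26, 14119953 to 14120656) in the olfactory receptor locus OR4C15li9 was at 0 for the females and at 3.76, 3.35 and 3.34 TPM in the males. MSTRG.26384 (296 bp, chromosome 2, 37907252 to 37907547) in ADARB2, a brain member of the RNA editing enzyme family, was at 0 for the females and at 2.71, 5.70 and 7.24 TPM in the males. ADARB2 itself overlapped between the sexes, with 7.61, 13.1 and 4.81 TPM and 5.79, 6.94 and 10.9 TPM. These 2 loci rested on 1095 to 3603 aligned bases in each male, and neither was called (limma, Benjamini-Hochberg adjusted p = 0.925 for both).

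The strongest of the members that separated the sexes was MSTRG.12187 (303 bp, chromosome 13, 41144493 to 41144795), in the unnamed host MSTRG.12186. It was at 73.2, 64.9 and 46.1 TPM in the females and 173, 124 and 109 TPM in the males, on 21489 to 71555 aligned bases. Every male was above every female, with a difference of -1.13 for females minus males on the log2(TPM + 1) scale (SE 0.240), yet limma did not call it (Benjamini-Hochberg adjusted p = 0.925). The difference was -1.27 to -0.94 when single animals were left out. Its host was listed at 0 in all females and in male 5, and at 0.272 and 0.900 TPM in males 1 and 4.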

How the data were processed

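Total RNA of the PFC of 3 female and 3 male tree shrews was enriched for polyadenylated RNA and sequenced as 150-base read pairs. According to the methods, the authors aligned reads with HISAT2 2.2.1 (genome build TS_3.0), assembled transcripts per animal with StringTie 2.2.1, merged them with the reference annotation, and measured each animal against the merged set without pooling. The deposited tables give TPM, FPKM and coverage (a mean depth signal) per locus and animal. All columns of the 6 tables were mapped to their animal. Because no read counts are in these tables, the count test of the study was not run.

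Members were found by strand, chromosome and overlap. Their hosts were the stranded loci of largest overlap, then the longest. Loci of the same identifier, chromosome and strand class were summed. Sexes were compared per locus with limma 3.58.1 (R 4.3.3) on log2(TPM + 1) with a mean-variance trend, over autosomal loci with at least 0.1 TPM in 3 animals and Benjamini-Hochberg adjustment, called under 0.1, and per animal with exact permutation tests (scipy 1.17.1). Fold changes on this scale understate those of low loci. The limma step was tested on simulated data. Named were the 8 members with the highest mean TPM, the 3 with the smallest p in each direction, the 8 named hosts with the most members, the 4 highest ratios to a named host of at least 1 TPM, the longest and the shortest, and the host with the most members of each gene list. The members and gene lists were chosen with earlier results of these data known. No sequence was read, since the reference at hand is of another assembly.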

Additional observations from a re-analysis of the deposited data

How the results depend on the processing

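Over pseudocounts, filters, scalings, FPKM, host choice and left-out animals, none of 68 recomputed sex differences changed direction, and 10 of all 117 recomputed values crossed the test's threshold, moved by more than 1 SD between animals or, for counts, by over 1.5 times. These limits are wide here. Every member lay wholly inside its host, so the recomputations restricted to such members repeat the main values and could not move, though they are counted. Without female 4, male 1 and male 5 the female minus male difference shrank to -661 in summed TPM (from -14582), -230.5 in members above 0 (from -1599), -0.041 in mean log2 (from -0.49), -0.55 percentage points in the ratio to hosts (from -8.53) and -0.11 for members minus hosts (from -0.50). These animals were left out for their high member signal, so smaller differences follow largely from the choice. No member was called in any limma setting but the filter at 1 TPM, which gave 1. Without a filter, an unadjusted p under 0.05 was reached by 45 members higher in females and by 142 higher in males, against 96 and 312. Leaving out 1 animal gave 56 to 119 and 198 to 537, and 0 to 0 called. The members minus intergenic difference was -0.021 without female 4, male 1 and male 5, and -0.13 to -0.074 without single animals. The cause was not tested. Animal numbers 1 and 4 occur in both sexes, and nothing in the labels makes them pairs. Deviations from the sex means correlated at -0.0013 and 0.039 for these, within the -0.060 to 0.062 of the other pairs. Whether they share a batch was not tested. With the number as a replicate block 0 members were called, with 153 higher in females and 249 in males at an unadjusted limma p under 0.05. The sex term of that fit rests only on the numbers found in both sexes, so it is a weak check. Members near the median rest on few reads, which limits single-member comparisons.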
